A study of Mus musculus with 75 samples.

Results

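The Input RNA of CD4 effector T cells stimulated together with regulatory T cells (Tregs) was compared with that of cells stimulated without them. Of the 75 libraries of the series, these are 8: the Input libraries of the SPEED assay titled Stim.Treg (4 libraries) and Stim.none (4 libraries), chosen by their titles, with 1 library of each kind from each of 4 mice. The effector cells were CD4+CD25- T cells (CD4 Teff) from spleen and lymph nodes of B6.SJL-PtprcaPepcb/BoyJ mice, the congenic CD45.1 strain. The stimulated cultures held beads coated with anti-CD3 and anti-CD28, and the cultures with Tregs held the same beads and CD4+YFP+ cells as Tregs. Per the labels' protocols the Foxp3YFP-Cre strain supplied sorted YFP- cells for some control cultures. Input is the total RNA of the culture, and the same cultures also gave RNA from the polysomal (Pol) and subpolysomal (SubPol) sucrose fractions. Untreated Input libraries from the same 4 mice give the level without stimulation. The RiboTag assay, in 5 other mice with its own rested, stimulated and Treg cultures, gives the same comparison in separate cells. Those mice carry the Tg(Cd4-cre)1Cwi transgene, which acts in T cells, and the tagged Rpl22tm1.1Psam allele of a ribosomal protein gene, and their rested cells were kept with IL7. The ages and sexes of the mice are not given in the labels.

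Tregs are CD4 T cells that carry the transcription factor Foxp3 and restrain the activation of other T cells. They consume interleukin 2, lower the costimulation that other cells receive and secrete inhibitory cytokines. A resting T cell that is stimulated through its antigen receptor and CD28 leaves quiescence: transcripts of the resting state fall while those for growth, cytokines and division rise, and protein synthesis increases. Total RNA measures transcript abundance before any separation by ribosome load, so it is the level against which polysome association is read.

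Not given in the sources used here are the number of Tregs added, the time in culture and any removal of Tregs before lysis. The density control could be extra effector cells or YFP- cells, and which of these was used for these libraries is not given either. So fewer cells of a type and less RNA per cell cannot be told apart. The tables used here do not pair the gene identifiers with names. The labelled cell type, the Treg genes and the planned pathway lists were therefore not looked up, and genes are described by identifier, level and behaviour. Whether RNA of the added Tregs is part of the Treg libraries was not tested.

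The stimulated libraries held 2774767, 3697133, 2257220 and 2871580 gene counts in mice 1 to 4, and the libraries with Tregs 4244869, 4523694, 3922347 and 3063543. Every library with Tregs was deeper than the stimulated library of the same mouse, by 1.53, 1.22, 1.74 and 1.07 times, so depth moved with the group. Thinning all 8 to 2257220 counts in 5 random draws gave 57 to 67 genes past the test. Of these, 53 to 58 were among the 73 that passed with the counts as deposited. No pair of libraries within a group agreed within sampling noise (chi-square per degree of freedom 4.25 to 8.01, where repeat counts of 1 library would give about 1).

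With Tregs, 57 genes were higher and 16 lower than in cells stimulated alone (n = 4 mice per group). These were 0.459% and 0.129% of the 12428 genes tested, called with edgeR's quasi-likelihood test where p was under 0.05 after Benjamini-Hochberg adjustment, whatever the fold. The rises had a median log2 fold change of 0.78 and the falls a median of -0.74, while the median over all tested genes was 0.02. Of the genes that passed, 19 were at least 2-fold higher and 4 at least 2-fold lower. The genes that rose had a median level of 61.9 CPM (counts scaled to a common library total) in stimulated cells and 116 CPM with Tregs, and stood at 169 CPM in untreated cells. The genes that fell went from a median of 135 to 83.9 CPM and stood at 47.7 CPM in untreated cells. For both groups of genes the median level with Tregs thus lay between the stimulated and the untreated medians, although the stimulated libraries that chose the genes are part of this description. In RiboTag Input, which shares no library, stimulation lowered 41 of the 57 genes that rose, raised 8 and left 8 uncalled. Of the 16 that fell, it raised 7, lowered 3 and left 6 uncalled. Among all genes tested in RiboTag, 32% passed as raised and 31.4% as lowered. With the mouse as a replicate block the counts were 113 higher and 36 lower. In a fit of only the 8 libraries compared, with that block, they were 414 higher and 337 lower. The number of calls and the excess of rises thus depended on the model.

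Most transcripts changed little. At an unadjusted p under 0.05 there were 1795 of the 12428 genes tested. This share is above the 0.05 that would pass if no gene changed, so genes not called need not be unchanged. Of the 7103 genes measured well, those averaging a log2 CPM of 5 or more over the 8 libraries, 94.5% had a 95% interval of the fold change that lay within 2-fold, and 65.3% one that lay within 1.5-fold. For the other well measured genes a change of that size was not excluded by its interval. The share of genes that passed was 0.13% below a log2 CPM of 3, 0.443% from 3 to 5, 0.801% from 5 to 7 and 0.91% from 7 to 9. Of the 83 genes at 9 and over, 0 passed in edgeR (19 at an unadjusted p under 0.05, 2 called by DESeq2). The median standard error of the log2 fold change was 0.84 below 3, 0.12 from 7 to 9 and 0.14 at 9 and over.

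**Figure D1:**
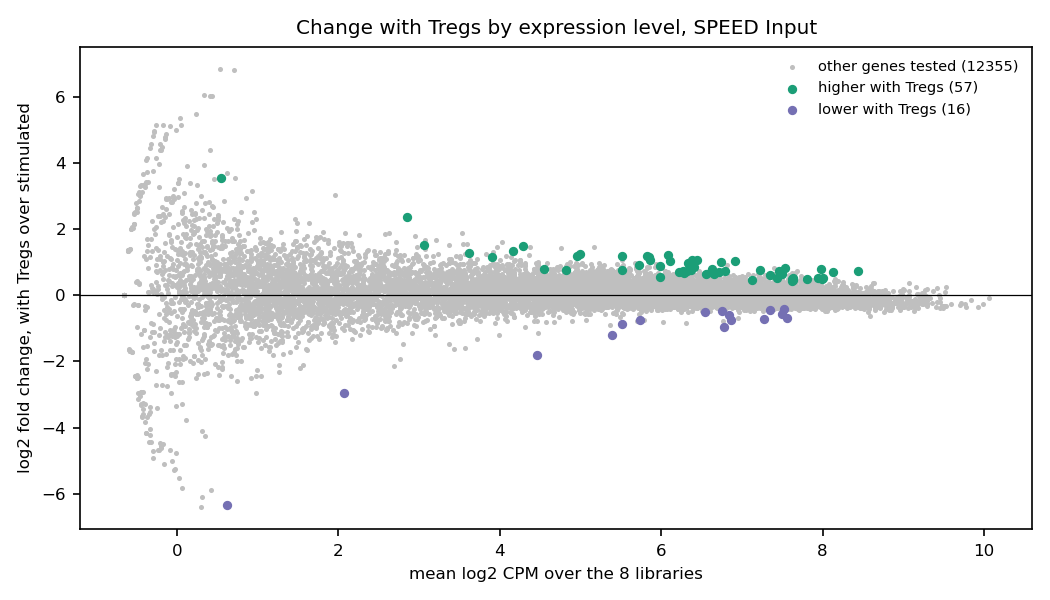
Log2 fold change with Tregs over stimulated (y axis) against mean log2 CPM over the 8 libraries (x axis), 1 point per gene tested. The 57 genes that rose and the 16 that fell are coloured; the widest changes among the coloured points are those of 4 genes below a log2 CPM of 3.

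The 4 largest changes among the genes that passed were in 4 genes below a log2 CPM of 3, which the rule for named genes leaves out. A gene that fell had 9, 11, 5 and 12 counts in the stimulated libraries of mice 1 to 4 and 0 counts in all 4 libraries with Tregs, and 0 in all 4 untreated libraries. Set against a limit of 3 counts over the Treg group, it was at least 16.7-fold lower with Tregs, and its adjusted p was 0.0364 (edgeR). It did not pass in Pol (log2 change -1.30, edgeR adjusted p = 0.783) or SubPol (-2.58, edgeR adjusted p = 0.251). In RiboTag Input its change was 0.73, in the other direction, and did not pass (edgeR adjusted p = 0.799). The other gene that fell had 16, 52, 17 and 33 counts when stimulated and 4, 6, 8 and 2 with Tregs (log2 fold change -2.94, edgeR adjusted p = 0.0152). Both were thus at or near 0 in untreated cells, where the second had 0, 0, 3 and 0 counts. A gene that rose had 8, 20, 4 and 5 counts when stimulated, 37, 70, 65 and 73 with Tregs and 166 to 259 when untreated (log2 fold change 2.35, edgeR adjusted p = 0.0256). The other had 2 counts in all in the stimulated libraries and 36 with Tregs, a depth-scaled ratio of 13.3 with an exact 95% interval of 3.41 to 114 that covers counting error only. In both of these genes the counts in each untreated library were 13 or more. In each of the 4 genes the counts of the stimulated and Treg libraries did not overlap. DESeq2 gave no adjusted p for these 4 genes.

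Of the 73 genes, 69 (55 higher, 14 lower) qualified for naming if the term on symbols is set aside, and the 2 with the largest rises and the 2 with the largest falls follow. ENSMUSG00000036890 had 5.78, 3.44, 4.07 and 4.87 CPM in the stimulated libraries of mice 1 to 4 and 12.7, 14.2, 12.3 and 13.4 CPM with Tregs. Every library with Tregs lay above every stimulated library, and the groups' means were 4.54 ± 1.01 and 13.1 ± 0.860 CPM (SD, n = 4). In untreated cells it had 13.4 ± 2.24 CPM (SD, n = 4), and the Treg libraries lay within the range of the untreated ones, 11.5 to 16.6 CPM. The rise was 1.53 on the log2 scale (SE 0.35, edgeR adjusted p = 0.0256) and rests on 9 to 16 counts per stimulated library. In the Pol and SubPol libraries of the same cultures its changes were 0.46 (edgeR adjusted p = 0.778) and 0.34 (edgeR adjusted p = 0.746), and in RiboTag Input -0.09 (edgeR adjusted p = 0.920). The difference between the assays, 1.61, did not pass (edgeR adjusted p = 0.179). On stimulation this gene fell by 1.56 on the log2 scale in SPEED Input (-1.56, edgeR adjusted p = 0.000225). In RiboTag Input its change on stimulation was -0.54 and did not pass (edgeR adjusted p = 0.127).

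ENSMUSG00000025880 had 6.50, 11.1, 13.1 and 15.7 CPM in the stimulated libraries of mice 1 to 4. With Tregs the values were 28.6, 43.4, 26.8 and 31.3 CPM, all above the highest stimulated library. Untreated cells held 206, 193, 115 and 141 CPM, so this transcript fell by 3.82 on the log2 scale on stimulation (edgeR adjusted p = 9.37e-14) and the cells with Tregs remained well below the untreated level. The rise with Tregs was 1.49 (SE 0.29, edgeR adjusted p = 0.00868). It was 1.36 in SubPol (edgeR adjusted p = 0.00969) and 0.91 in Pol, where it did not pass (edgeR adjusted p = 0.320). In RiboTag Input of the 5 other mice it went from 11.7 ± 2.38 to 32.7 ± 3.96 CPM (SD, n = 5), a log2 change of 1.48 (edgeR adjusted p = 0.00182), from 120 ± 53.0 CPM in rested cells. Of the 4 genes named, this was the only one that passed in both assays.

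ENSMUSG00000073102 had 35.4, 36.0, 49.2 and 39.7 CPM in the stimulated libraries of mice 1 to 4 and 13.8, 10.8, 10.0 and 11.4 CPM with Tregs. The lowest stimulated value was above the highest value with Tregs, and untreated cells held 1.52, 11.1, 6.35 and 8.81 CPM. It fell by 1.79 on the log2 scale (SE 0.45, edgeR adjusted p = 0.0454). In SubPol the change was -1.87 (edgeR adjusted p = 0.0297) and in Pol -1.74 (edgeR adjusted p = 0.0780). RiboTag Input gave 0.81, in the other direction, which did not pass (edgeR adjusted p = 0.380). Its levels there varied widely, from 19.4 to 80.9 CPM in stimulated and from 44.8 to 136 CPM in Treg cultures, and the difference between the assays did not pass (edgeR adjusted p = 0.113). On stimulation this gene rose by 2.51 on the log2 scale in SPEED Input (edgeR adjusted p = 1.84e-05). In RiboTag Input its change on stimulation was -0.35 and did not pass (edgeR adjusted p = 0.548).

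ENSMUSG00000030598 had 48.4, 72.6, 73.6 and 61.2 CPM in the stimulated libraries of mice 1 to 4 and 34.6, 28.5, 30.6 and 17.9 CPM with Tregs. Again the groups did not overlap, and untreated cells held 19.2, 21.5, 13.6 and 46.5 CPM. It fell by 1.19 on the log2 scale (SE 0.29, edgeR adjusted p = 0.0400). It passed in both fractions of the same cultures, with -1.41 in Pol (edgeR adjusted p = 0.0182) and -1.34 in SubPol (edgeR adjusted p = 0.0142). In RiboTag Input it was 34.4 ± 6.32 CPM when stimulated and 28.9 ± 2.57 CPM with Tregs (SD, n = 5), a change of -0.26 that did not pass (edgeR adjusted p = 0.557). The stimulated level differed in direction from the resting one between the assays: it was 1.33 above untreated cells on the log2 scale in SPEED (edgeR adjusted p = 0.000184) and 0.72 below IL7-rested cells in RiboTag (-0.72, edgeR adjusted p = 0.00259).

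**Figure D2:**
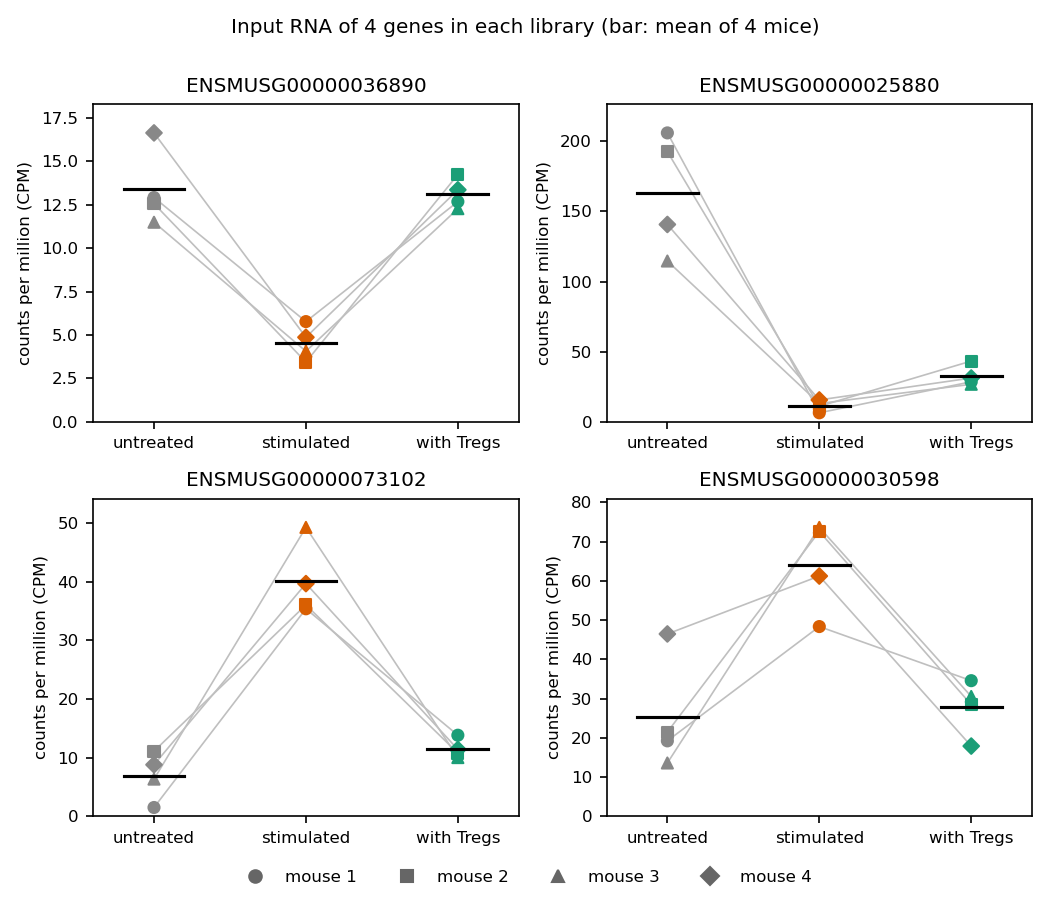
CPM (y axis, from 0) of the 4 genes in untreated, stimulated and Treg Input libraries (x axis), 1 point per library, with lines joining libraries of 1 mouse and bars at the mean of 4 mice. In each gene the 4 Treg values lie on 1 side of the 4 stimulated values.

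Which genes passed depended on the mice included, while the size of the changes moved less. Without mouse 1, 2, 3 or 4 the number of genes that passed was 8, 6, 14 and 41, and without mouse 2 none of the 4 named genes passed (edgeR adjusted p 0.184 to 0.367). ENSMUSG00000025880 also did not pass without mouse 1 (edgeR adjusted p = 0.0600), and passed without mouse 3 or 4. It also did not pass without the stimulated library of mouse 1 (edgeR adjusted p = 0.0722) or the Treg library of mouse 2 (edgeR adjusted p = 0.0720). The other 3 named genes did not pass with any one mouse left out (edgeR adjusted p 0.0600 to 0.367). All 73 genes kept their sign with each mouse left out, which their shared sign in all 4 mice made nearly certain. When only single libraries were left out, the count was 18, 49, 19 and 137 without the stimulated library of mouse 1, 2, 3 or 4. It was 74, 17, 54 and 27 without the Treg library of mouse 1, 2, 3 or 4. With counts thinned to equal depth, ENSMUSG00000025880 passed in every draw. The other named genes passed in some draws and not in others. Their edgeR adjusted p ran from 0.0137 to 0.0769 for ENSMUSG00000036890 and from 0.0492 to 0.0855 for ENSMUSG00000073102. For ENSMUSG00000030598 the edgeR adjusted p ran from 0.0273 to 0.0888. Over all alternatives the log2 fold change of ENSMUSG00000036890 stayed between 1.37 and 1.96 and that of ENSMUSG00000025880 between 1.30 and 1.67. That of ENSMUSG00000073102 stayed between -1.96 and -1.63, and that of ENSMUSG00000030598 between -1.43 and -1.04.

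The change with Tregs varied among mice. All 57 genes that rose were higher with Tregs in 4 of 4 mice and all 16 that fell were lower in 4 of 4, where 15% and 15.9% of all tested genes had the same sign in all mice. In 54 of the 57 every Treg library lay above every stimulated library, and in all 16 below, against 5.57% and 6.65% of all tested genes. These counts come from the libraries that chose the genes. Within single mice, the median change of the 57 genes was 0.80, 0.86, 0.88 and 0.64 on the log2 scale in mice 1 to 4, and that of the 16 was -0.51, -0.77, -0.82 and -0.79. Among all well measured genes, 95, 98, 138 and 18 were at least 2-fold higher with Tregs in mice 1 to 4, and 6, 12, 9 and 21 at least 2-fold lower. Mouse 4 thus had the fewest 2-fold rises and more falls than rises, while mouse 3 had the most rises. Counts thinned to equal depth gave 97, 96, 155 and 18 rises and 13, 20, 12 and 23 falls. Across the 7103 well measured genes, which are not independent replicates, the changes of 2 mice correlated with r between 0.27 (mice 1 and 4) and 0.55 (mice 1 and 3).

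The first principal component of the 8 libraries held 42.5% of the variance over the well measured genes, and every stimulated library lay below 0 on it and every Treg library above. The stimulated libraries ranged from -21.9 (mouse 3) to -3.03 (mouse 4), and those with Tregs from 7.88 (mouse 4) to 17.8 (mouse 2). The distance between the groups was therefore smallest in mouse 4, where the depth of the 2 libraries also differed least (1.07 times). The lowest library on this component was the shallowest of the 8 (2257220 counts) and the highest was the deepest (4523694 counts). Whether depth bears on this component was not tested. The second component (19.1%) set both libraries of mice 1 and 2 below 0 and both of mice 3 and 4 above 0.

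**Figure D3:**
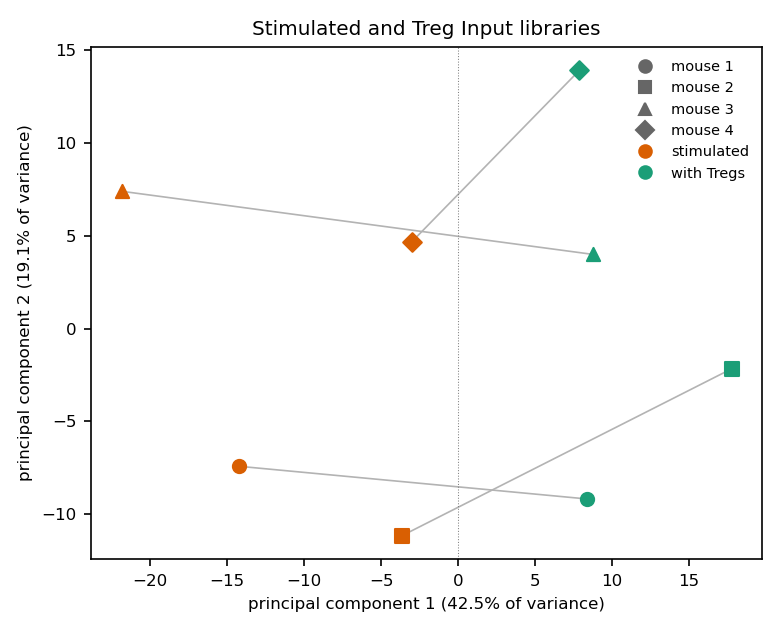
First (x axis) and second (y axis) principal components of log2 CPM of the 7103 well measured genes in the 8 libraries, coloured by group, with a line joining the libraries of each mouse. The groups part on the x axis, and mice 1 and 2 part from mice 3 and 4 on the y axis.

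The same cultures gave Pol and SubPol libraries, which were prepared separately from Input but share the cells. In Pol, 0.177% of all tested genes were higher with Tregs and 0.105% lower. Of the 57 genes that rose in Input, 56 had the same sign in Pol and 14 passed there, and their median change was 0.51 on the log2 scale. Of the 16 that fell, all 16 had the same sign and 8 passed, with a median of -0.70. In SubPol, where 0.821% of genes were higher and 0.33% lower, 54 of the 57 had the same sign and 26 passed (median 0.55), and all 16 had the same sign and 10 passed (median -0.67). The medians over all genes were -0.02 in Pol and -0.01 in SubPol. In all 3 kinds of SPEED library 10 genes were higher and 7 lower.

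In RiboTag Input, from other mice and with no shared library, 2.76% of the 10751 tested genes were higher with Tregs and 1.77% lower. Of the 57 genes that rose in SPEED Input, 48 had the same sign there, 18 passed in the same direction and 1 in the opposite direction, and their median log2 change was 0.43, against 0.00 over all genes. Of the 16 that fell, 11 had the same sign and 2 passed, with a median of -0.18. One of those 2 is the gene below a log2 CPM of 3 with 16, 52, 17 and 33 counts when stimulated, which fell by 2.81 on the log2 scale in RiboTag Input (edgeR adjusted p = 8.07e-06). Of the 10 genes that passed as higher in Input, Pol and SubPol, 5 also passed as higher in RiboTag Input. Of the 7 that passed as lower, 5 had a negative change in RiboTag Input, and no adjusted p there was under 0.05 (edgeR). The median in RiboTag lay nearer 0 for the falls than for the rises, a contrast that was not tested. The test of the difference between the assays was passed by 16 of 11232 genes (0.142%), and by 3 of the 72 genes called here that could be tested. The 72 were chosen on SPEED libraries that this test also holds, so their share cannot be set against that of all genes.

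**Figure D4:**
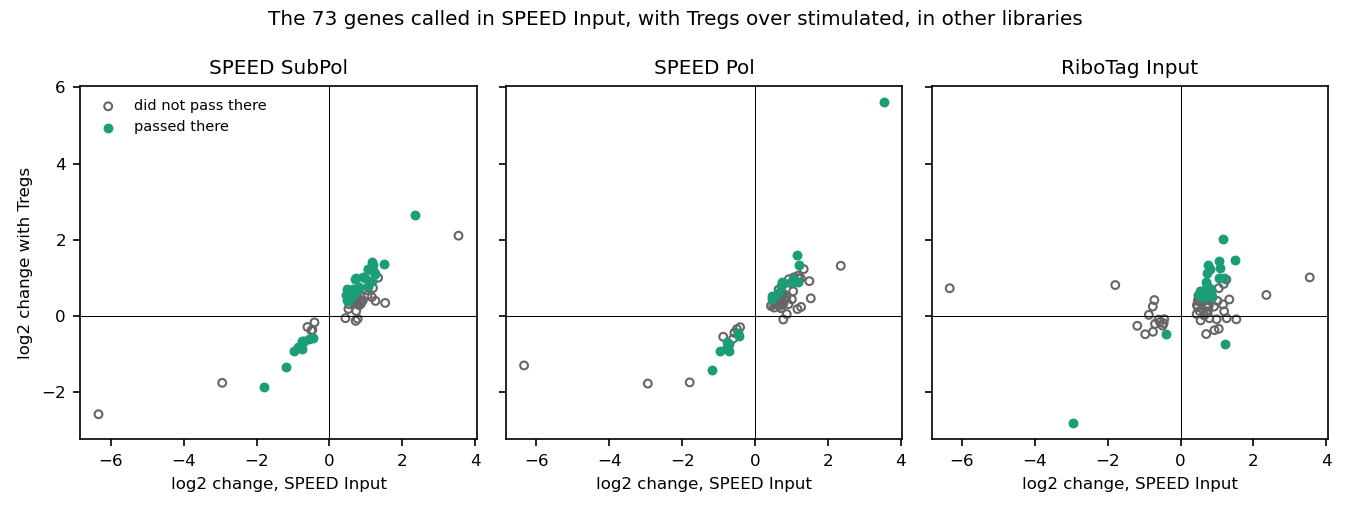
Log2 change with Tregs in SubPol, Pol and RiboTag Input (y axes) against that in SPEED Input (x axes) for the 73 genes that passed in SPEED Input, filled where the gene also passed in the library type of the panel. In SubPol and Pol nearly all points lie in the lower left and upper right, while in RiboTag Input 5 of the 16 genes that fell and 9 of the 57 that rose had the opposite sign.

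The genes were next grouped by their response to stimulation in the RiboTag Input libraries, which share no library with the SPEED comparison. There 32% of the tested genes passed as higher and 31.4% as lower in stimulated than in IL7-rested cells. The 78 genes that had fallen by more than 3 on the log2 scale had a median change with Tregs of 0.65 in SPEED Input. The median was 0.45 for the 234 genes that had changed by -3 to -2, 0.30 for the 1212 at -2 to -1 and 0.16 for the 1600 at -1 to -0.5. So the further a group of genes had fallen on stimulation, the higher its median with Tregs. Most genes at the steep end were not well measured. Of the 78 genes only 4 were, with a median of 0.99, and of the 234 only 48, with a median of 0.41. Among genes that stimulation had raised the medians were smaller in size. They were -0.06 for the 2149 genes at 0 to 0.5, -0.12 for the 1397 at 0.5 to 1, -0.12 for the 980 at 1 to 2, -0.09 for the 320 at 2 to 3 and -0.12 for the 478 above 3. At a change of -0.5 to 0 the median was 0.05 in 2243 genes.

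Single mice showed the same order on the lowered side, with some exceptions. In the genes at -2 to -1 the medians within mice 1 to 4 were 0.21, 0.37, 0.34 and 0.18, and in those at -1 to -0.5 they were 0.13, 0.17, 0.19 and 0.13. In the 78 genes that had fallen most they were 0.22, 0.76, 0.52 and 0.32, a wider spread, and in mouse 1 this was below its median of 0.28 in the next group. Above 3 the medians were 0.01, -0.15, -0.07 and -0.23, so the sign was not the same in all mice. Across the 5 groups that had risen, the median of mouse 4 moved further from 0 at each step, with -0.04, -0.09, -0.13, -0.17 and -0.23. Mice 1 to 3 showed no such order. Of the 1472 genes that passed in RiboTag as lowered at least 2-fold, 33.6% were higher with Tregs in all 4 mice and 2.17% lower in all 4, beside 15% and 15.9% of all tested genes. Of the 1691 raised at least 2-fold, 28.5% were lower in all 4 mice and 7.81% higher in all 4. The median of the 1472 was 0.32, with 0.24, 0.40, 0.36 and 0.20 in mice 1 to 4, and the same value when 11 genes at 0 in a whole group were set at their bound. The median of the 1691 was -0.12, with -0.05, -0.19, -0.11 and -0.16 in mice 1 to 4. In well measured genes alone the medians at -2 to -1 and at 1 to 2 were 0.30 and -0.16.

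**Figure D5:**
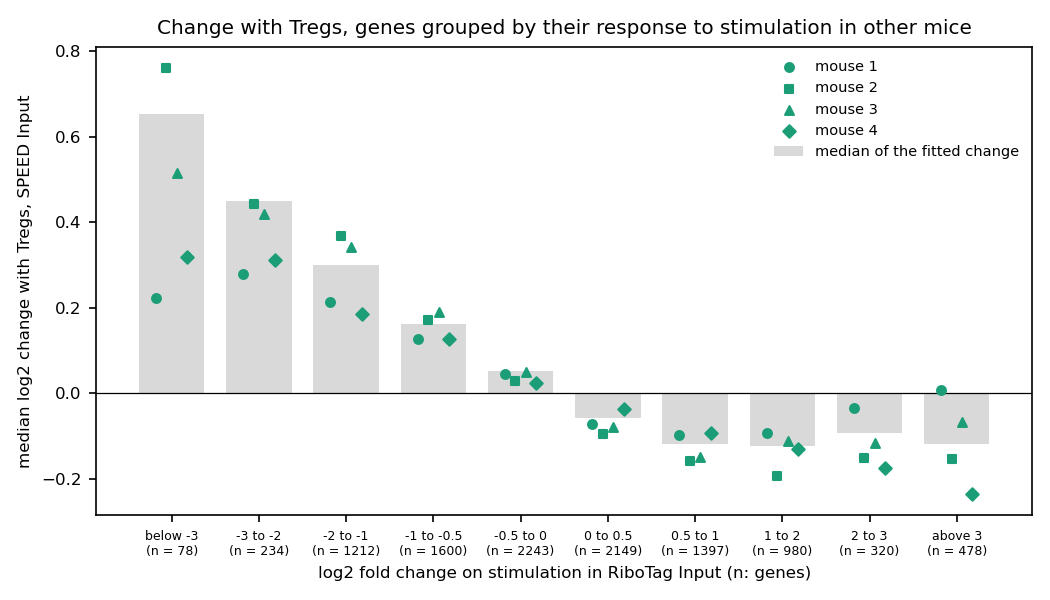
Median log2 change with Tregs in SPEED Input (y axis) for genes grouped by their log2 change on stimulation in RiboTag Input (x axis, with the number of genes), as bars for the fitted change and points for each mouse. The medians go from 0.65 in the genes that fell most to 0.05 just below 0, and lie between -0.12 and -0.06 in the groups that rose.

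Genes were also grouped by how strongly their RNA lay in Pol over SubPol in untreated cells, libraries that are not part of the comparison but come from the same mice. The median change with Tregs in Input was 0.01 in the 386 genes with a log2 ratio below -2. It was -0.03 in the 1023 genes at -2 to -1 and -0.05, the lowest, in those at -1 to -0.5. From there the medians rose to 0.09 in the 363 genes above 2, a narrow range. The median at 1 to 2 was 0.03, 0.02, 0.18 and -0.02 in mice 1 to 4. In mouse 3 it was the highest, and the order of the groups was not shared by all mice.

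Cell division is a main outcome of T cell stimulation, and the packaged mouse cell-cycle gene pairs of scran, which are given as gene identifiers, could be read in these tables. A pair is counted where its genes stand in the order that marks a phase, so the measure is a share of pairs. The pairs were made for single cells and are used here only to set libraries side by side. The share for G1 was 57.3 ± 0.782% in untreated, 38.6 ± 1.84% in stimulated and 39.3 ± 2.73% in Treg libraries (SD, n = 4). The shares for S were 53.7 ± 0.627%, 60.4 ± 0.467% and 60.0 ± 0.724%, and those for G2M 38.5 ± 0.637%, 46.7 ± 1.97% and 46.1 ± 2.82% (SD, n = 4). Stimulated and Treg libraries overlapped in all 3 phases, while untreated libraries stood apart from both. The differences between Tregs and stimulated within a mouse ran from -0.22 to 2.59 percentage points for G1, higher in 2 of 4 mice, and from -2.61 to 1.65 for G2M, higher in 1 of 4. Mouse 4 had the largest of these differences in G1. Of 638 pair genes tested, 5 passed, each higher with Tregs (edgeR, adjusted p under 0.05), beside the 0.459% of all tested genes that were higher. The median change of the 638 was -0.04 on the log2 scale.

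Few transcripts were seen in 1 of the groups only. With counts in all 4 Treg libraries and 0 in all 4 stimulated libraries there were 27 genes, with a median of 7 counts summed over the Treg libraries, and in the other direction 8 genes. Thinned to equal depth the numbers were 11 and 14, so the excess on the Treg side was absent in that random draw. Of the 27, 4 also had 0 counts in the untreated libraries, with 6 to 38 counts summed over the Treg libraries.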

How the data were processed

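For each assay the authors deposited raw read counts for 53465 mouse gene identifiers. The submitters' processing notes name SAMtools 1.2, FastQC 0.11.3, Picard 1.134 and HTSeq 0.4.1 and the build GRCm38. The aligner is not given in the sources used here. Per the labels' protocols, libraries were made with SMART-Seq v4 and NexteraXT, without marking strand, so reads of antisense partners cannot be told apart. Unused were 16 RiboTag columns with no matching sample.

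Counts were fitted in R 4.3.3 with edgeR 4.0.16: filterByExpr (minimum count 10, minimum total 15), TMM scaling, then 1 robust quasi-likelihood model with a term per group over 44 SPEED libraries. The second of a pair of HHT libraries with the same title was left out. RiboTag (30 libraries) was fitted separately, and the difference between the assays was tested as an interaction over 27 Input libraries. Two-sided p-values were adjusted over all genes by Benjamini-Hochberg. CPM used the TMM-scaled totals of the genes kept, and log2 values per mouse a prior count of 2. The labels give a mouse to each library, and this pairs the samples. Same-numbered deviations from the group mean correlated with r of 0.07 to 0.24, and those of other mice with -0.35 to 0.30. By this measure 3 of the 4 Treg libraries were nearest to the stimulated library of their own mouse. Likewise 3 of the 4 stimulated libraries were nearest to the Treg library of theirs.

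The groups, gene lists, named-gene rule and alternatives were chosen with earlier results of these data known. The rule for named genes asked for a symbol, which the tables do not give, so it was applied without that term, and 4 identifiers are printed: genes that passed at 0.05, averaged a log2 CPM of 3 or more and moved the same way in 4 mice, then the 2 largest rises and 2 largest falls. The planned gene lists were not tested for the same reason. Cell-cycle pairs came with scran 1.30.0. The grouping by stimulation, the cell-cycle pairs, the thinning and the bounds for genes at 0 were chosen after the data were seen. DESeq2 1.42.0 was an alternative. Intervals and limits from counts cover counting error only.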

Additional observations from a re-analysis of the deposited data

Results flagged for a closer look

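Of the 72 genes that passed in SPEED Input and could be tested, 3 differed between the assays in their change with Tregs (edgeR, interaction term, 27 libraries). In each, the change was higher in SPEED. These 3 had been called as rises from SPEED libraries that the interaction also holds, so this direction was favoured in advance. In the first, the log2 change was 1.21 in SPEED (edgeR adjusted p = 0.00115) and -0.73 in RiboTag (edgeR adjusted p = 0.00162), a difference of 1.92 (edgeR adjusted p = 0.000141), so it passed in both assays in opposite directions. In SPEED Input it went from 45.0 CPM when stimulated to 106 CPM with Tregs. In the second, the changes were 1.05 and -0.34, a difference of 1.37 (edgeR adjusted p = 0.000141), from 83.9 to 174 CPM in SPEED. In the third, they were 0.70 and -0.47, a difference of 1.16 (edgeR adjusted p = 0.00444), from 76.8 to 125 CPM. Neither of the last 2 passed in RiboTag alone (edgeR adjusted p 0.271 and 0.147). These genes are outside the rule for the identifiers printed and were chosen by this test after their values were seen. In 32 checks of single samples against the others of their group, none stood apart; chance flags about 1 in 20 groups.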

How the results depend on the processing

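The number of calls fell when single mice were left out. All 73 genes kept their sign in every alternative where they were tested (71 of 73 in the fits of the 8 libraries alone). They had the same sign in all 4 mice to begin with, so leaving out libraries could hardly change it. With the mouse as a replicate block, 149 genes passed (113 higher, 36 lower). In a fit of only the 8 libraries it was 166 (120 higher, 46 lower), and with the replicate block as well 751 (414 higher, 337 lower). DESeq2 gave 257 (169 higher, 88 lower), and no filter on low counts 47, with 9 lower. However, DESeq2 gave no adjusted p to 3058 genes below a log2 CPM of 3 and 2050 genes from 3 to 5. Among these were 4 and 5 of the genes called here. The share of higher calls was 78.1% in the fit described, 55.1% with only the 8 libraries and the replicate block, and 65.8% in DESeq2. With RLE scaling 71 genes passed, with only the Input libraries 65, and with the HHT library of the repeated title kept 78. Of these, 71, 45 and 72 were among the 73. With only the Input libraries ENSMUSG00000030598 did not pass (edgeR adjusted p = 0.0862). Leaving out 1 mouse or 1 library gave 6 to 137 genes (5 to 115 higher, 1 to 22 lower). Thinning to equal depth, in 5 draws, gave 57 to 67 genes, with 9 to 20 lower (9, 10 and 10 in 3 of the draws). The difference between the assays was called in 16 genes, in 27 with the replicate block, and in 5 to 17 without 1 SPEED mouse (5 without mouse 3). The median changes of genes lowered or raised at least 2-fold by stimulation stayed within 0.279 to 0.372 and -0.168 to -0.0891 over all alternatives. The 4 named genes kept their sign in 24 or 25 alternatives each and passed in 7 to 21 of them (edgeR or DESeq2 adjusted p 0.000312 to 0.367). ENSMUSG00000036890 and ENSMUSG00000073102 have 24, as they are without a DESeq2 value. The replicate block changed none of the calls of the 4 named genes. Standard errors below a log2 CPM of 3 limit what can be seen there.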
